A study of Mus musculus with 12 samples.

Results

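The 9 mouse liver genes known to be repressed by pulses of growth hormone and followed here across 12 livers were Cyp2b9, Cyp2b13, Hao2, Cyp3a16, Cyp3a41a, Cyp3a44, Cyp17a1, Abcd2 and Cux2. They were taken by symbol from a table of 28036 genes, and all 9 members have a row. All livers were from inbred C57BL/6J mice, 3 in each of 4 groups. EE mice had a diet-induced model of metabolic dysfunction-associated steatohepatitis (MASH, fatty liver with inflammation). After 8 weeks of it, they received oral Eleutheroside E (100 mg/kg), a lignan glycoside found in plants, for 4 weeks. Resmetirom mice had the same high-fat diet model and received resmetirom (3 mg/kg), which activates the beta form of the thyroid hormone receptor, over the same 4 weeks. MASH mice had the model and, in place of a drug, 0.5% CMC-Na. Control mice had the same vehicle and normal chow. Neither treated group has a chow-fed counterpart, so a treatment effect can be read only on the diet background. MASH 1 stands for replicate 1 of the MASH group, and so on.

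In mice, males release growth hormone in pulses and females release it almost continuously. Each pulse activates the growth hormone receptor on hepatocytes, the kinase JAK2 and the transcription factor STAT5B, which turns on a set of male-biased genes and holds down a set of female-biased ones. The female-biased set includes cytochromes P450 of the 2B and 3A families and the transcriptional repressor CUX2, and in an adult male liver most of it is close to silent. The labels give no sex. The Y-linked gene Ddx3y had 12.4 to 40.8 CPM in the 12 livers, and Uty, Kdm5d and Eif2s3y also had counts in each one.

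Several members have close copies, which matters for what a read can be assigned to. Cyp2b9 and Cyp2b13 lie on chromosome 7. The 250 bases before their RefSeq start sites are shown because the sequences differ by only 2 bases, while the levels of the genes differed widely. Capitals mark the bases that differ, T48C and C104T, counted from the first base shown, with the Cyp2b9 base first. The build is GRCm38.p6, older than the GRCm39 build of the counts, and no position was converted.
Cyp2b9, chr7:26173159-26173408, plus strand: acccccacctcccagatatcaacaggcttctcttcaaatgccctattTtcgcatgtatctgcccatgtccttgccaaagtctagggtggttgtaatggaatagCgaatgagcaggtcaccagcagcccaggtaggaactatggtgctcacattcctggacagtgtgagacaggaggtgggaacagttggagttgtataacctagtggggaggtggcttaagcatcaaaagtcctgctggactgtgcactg
Cyp2b13, chr7:26061245-26061494, plus strand: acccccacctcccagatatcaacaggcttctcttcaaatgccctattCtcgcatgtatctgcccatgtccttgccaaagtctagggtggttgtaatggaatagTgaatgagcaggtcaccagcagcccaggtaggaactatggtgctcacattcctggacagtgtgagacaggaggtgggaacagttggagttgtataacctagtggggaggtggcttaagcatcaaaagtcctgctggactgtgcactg
Over the full 300-base records, which run 50 bases past the start, the pair was 99.33% identical. Cyp2b10, the member of the family that responds to xenobiotics, was 71.7% identical to either. The transcripts had diverged further, to 89.23% identity. Of all 150-base stretches of the Cyp2b9 transcript, 0 occur in another gene's transcript, so reads of that length are distinct in sequence. For Cyp2b13, 5.04% of such stretches also occur in the predicted gene Gm45225.

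The 3 Cyp3a members and Cux2 lie on chromosome 5. Short windows of the Cyp3a promoters are shown because 1 gene departs from the others inside a stretch of the kind bound by the hepatocyte factor HNF4. Capitals mark the 9 bases searched, on the minus strand of GRCm38.p6.
Cyp3a16, chr5:145469799-145469838: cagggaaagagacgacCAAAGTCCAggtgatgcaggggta
Cyp3a41a, chr5:145720208-145720247: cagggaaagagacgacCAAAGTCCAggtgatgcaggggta
Cyp3a41b, chr5:145584802-145584841: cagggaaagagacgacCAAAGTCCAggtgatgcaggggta
Cyp3a44, chr5:145805946-145805985: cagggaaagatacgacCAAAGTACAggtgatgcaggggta
Within the 9 letters, Cyp3a44 carries C7A relative to Cyp3a41a. The letters CAAAGTCCA, on either strand, occur in 0.475% of 32851 RefSeq promoter records of the same 300-base length. They also occur in the record of Cyp3a11, a paralog that is not a member. The letters TTCNNNGAA, searched as a STAT5-type element on both strands, occur in 8.3% of the records and in none of the records of the 7 members that have one. The 6 letters ATCAAT, of the HNF6 and CUX type, occur in 7.54% of records and in those of Cyp3a16, Cyp3a41a and Cyp3a44. A match is a description and not a binding site, and the absence of one says only that the letters are not in that window. The Cyp3a41a transcript is 99.71% identical to that of Cyp3a41b, which has no row here. Of its 150-base stretches 82.9% occur in Cyp3a41b, so counts of Cyp3a41a are uncertain.

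The library totals ran from 17297875 to 21793332 counts. Levels are given as CPM (a gene's counts relative to its library's TMM-scaled total), with the SD over n = 3 livers. Fold changes are log2 values with their SE, from edgeR's quasi-likelihood test, and a gene was called at an adjusted p below 0.05 over 13988 tested genes. Of the 12 libraries, 3 stood apart. Control 1 had 35.4% of its counts in mitochondrial genes, against 2.40% to 4.38% in the other libraries, and correlated with the other controls at r = 0.890 to 0.893 across genes. Resmetirom 2 had 35.7% of its counts in major urinary protein genes, against 3.33% to 16.0% elsewhere. Resmetirom 1 had the most RNA of stellate and macrophage genes, with Col1a1 at 90.4 CPM, against 9.14 and 7.53 in the other resmetirom livers, and Gpnmb at 43.0 CPM, against 0 and 0.564. All 12 hepatocyte markers had counts in every group. Their sum ran from 130670 to 140200 CPM in EE, 87604 to 134090 in resmetirom, 99454 to 113150 in MASH and 112550 to 179760 in control livers.

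Of the 9 members, 3 had enough counts to be tested: Cyp2b9, Cyp17a1 and Abcd2. The other 6 stayed at a group mean of 1.07 CPM or less in every group. Per kilobase of the longest coding transcript, mean levels of the tested genes in MASH livers were 21.7 CPM for Cyp2b9, 14.9 for Cyp17a1 and 4.68 for Abcd2. In control livers they were 0.134 for Cyp2b9, 3.48 for Cyp17a1 and 1.56 for Abcd2. Cyp17a1 and Abcd2 had counts in all 12 livers, and Cyp2b9 in 10.

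**Figure D1:**
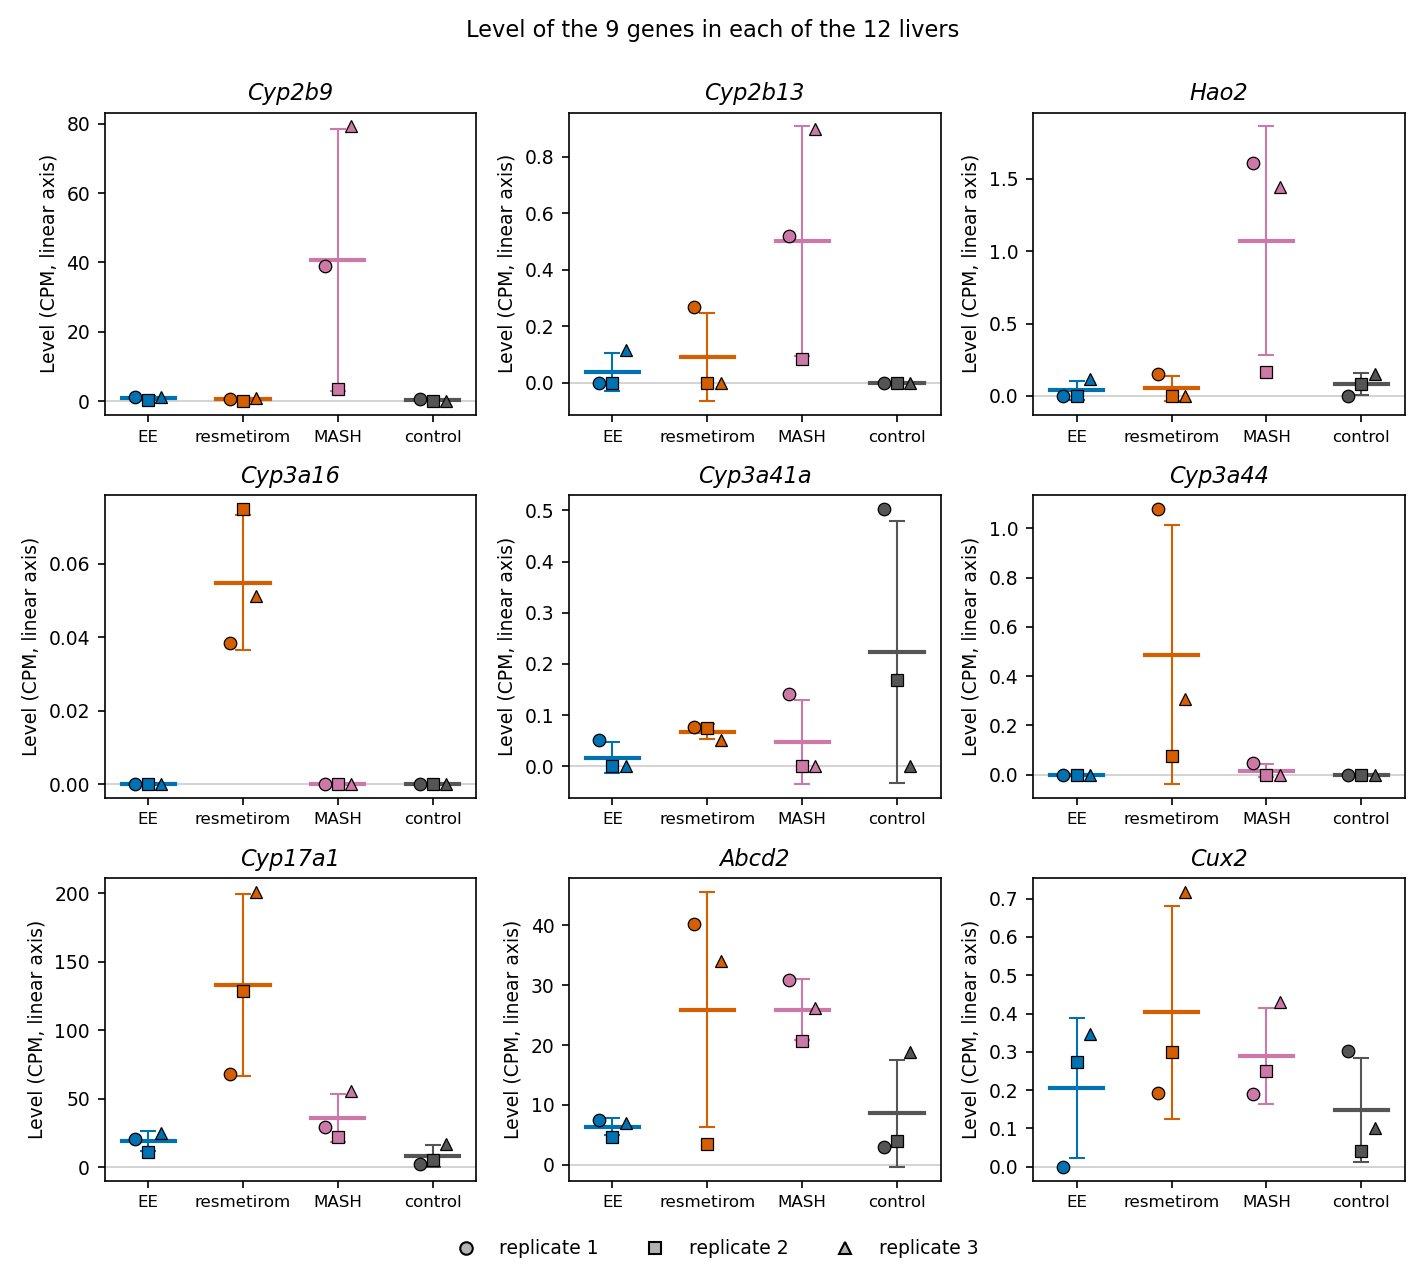
Level of each of the 9 genes in every liver (CPM, linear axis, scaled separately for each gene), by group, with the group mean as a horizontal line and the SD as whiskers (n = 3). Cyp2b9, Cyp2b13 and Hao2 are highest in MASH 1 and MASH 3, while Cyp17a1 and Cyp3a44 are highest in resmetirom livers.

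Cyp2b9, a steroid-hydroxylating P450 that is normally a mark of the female mouse liver, was the member that moved most. Its counts were 24, 4 and 22 in EE livers, 12, 0 and 19 in resmetirom livers, 825, 86 and 2029 in MASH livers, and 6, 0 and 3 in control livers. All 3 MASH livers lay above every other liver, and they also differed most among themselves, with MASH 2 far below MASH 1 and MASH 3. The mean level was 0.906 ± 0.597 CPM in EE, 0.479 ± 0.487 in resmetirom, 40.6 ± 37.8 in MASH and 0.252 ± 0.314 in control livers (SD, n = 3 each). In a bulk sample, fewer expressing cells and less RNA per cell cannot be told apart.

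With resmetirom, Cyp2b9 fell by 6.30 on the log2 scale relative to MASH (SE 1.18, adjusted p = 0.0392), lower in 3 of 3 livers than in any MASH liver. It was the only member called in that comparison, in which 0.665% of all tested genes were called, 0.329% as lower. It was lost in 10 of the 12 fits that left out 1 library (adjusted p = 0.0527 to 0.157) and kept without control 1 (0.0213) or without control 2 (0.0443). The log2 fold change was -5.38 without MASH 3 and -7.14 without resmetirom 3. Without control 1 and resmetirom 2 the log2 fold change was -5.86 at an adjusted p of 0.0554. Limma voom gave 0.214 and DESeq2, which called 4.7% of genes, 0.00167.

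The other contrasts of Cyp2b9 did not pass. MASH over control gave a log2 fold change of 7.75 (SE 1.35, adjusted p = 0.187) with no overlap between the groups, and EE over MASH gave -5.48 (SE 1.12, adjusted p = 0.582), also with no overlap. MASH over control was 6.76 without MASH 3, 6.95 without control 2 and 9.07 without control 1, and EE over MASH was -4.54 without MASH 3. In those comparisons, 0.0143% and 0.00715% of all tested genes were called. DESeq2 called MASH over control (adjusted p = 0.000938, with 0.622% of genes called) but not EE over MASH (0.0694). With the replicate number as a block, EE over MASH had an adjusted p of 0.0309 (log2 fold change -5.25). That fit called 0.0357% of genes, and nothing in the labels pairs same-numbered livers across groups. In EE and resmetirom livers Cyp2b9 was not detectably different from control: the log2 fold changes were 2.27 (SE 1.47, adjusted p = 0.46) for EE and 1.45 (SE 1.56, adjusted p = 0.623) for resmetirom. EE over resmetirom stood at 0.82 (SE 1.20, adjusted p = 0.859).

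Cyp2b13, the closest paralog, was also highest in MASH livers, at a far lower level. It had 0, 0 and 2 counts in EE livers, 7, 0 and 0 in resmetirom livers, 11, 2 and 23 in MASH livers and none in the control livers. The MASH livers ranked as they did for Cyp2b9, with MASH 3 highest and MASH 2 lowest. Summed over the group and set against a floor of 3 counts, Cyp2b13 was at least 9.05-fold higher in MASH than in control livers. The EE sum was 0.0711 of the MASH sum after scaling (95% interval 0.0083 to 0.276), and the resmetirom sum was 0.234 of it (0.0877 to 0.532). These intervals cover counting error only. In MASH livers, Cyp2b9 had 81.7 times the counts of Cyp2b13, 2940 against 36, although the sequence before their start sites is nearly the same. Summing the counts of both genes left the resmetirom over MASH call in place (log2 fold change -6.06, adjusted p = 0.0435).

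Hao2, a peroxisomal oxidase of 2-hydroxy acids, was also highest in MASH livers. Its counts were 0, 0 and 2 in EE livers, 4, 0 and 0 in resmetirom livers, 34, 4 and 37 in MASH livers and 0, 2 and 3 in control livers. MASH 1 and MASH 3 lay far above all other livers. MASH 2 and resmetirom 1 had the same count, and after scaling MASH 2 was at 0.167 CPM and resmetirom 1 at 0.154. The MASH sum was 11.3 times the control sum (95% interval 4.64 to 35.9, counting error only), and the EE and resmetirom sums were 0.0342 and 0.0641 of the MASH sum. Hao2 did not pass the filter on low counts. In a fit with no such filter, resmetirom over MASH gave a log2 fold change of -3.99 at an adjusted p of 0.0402, with 0.883% of genes called, while EE over MASH (-4.64) stood at 0.193 and MASH over control (3.53) at 0.232.

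Cyp17a1, the steroid 17-alpha-hydroxylase, did not follow that profile and was highest with resmetirom. Its counts were 408, 203 and 435 in EE livers, 1774, 1721 and 3919 in resmetirom livers, 626, 530 and 1431 in MASH livers, and 23, 129 and 342 in control livers. The mean level was 19.0 ± 7.22 CPM in EE, 133 ± 66.4 in resmetirom, 35.9 ± 17.7 in MASH and 8.37 ± 7.94 in control livers. Every resmetirom liver, at 68.3 to 201 CPM, lay above every other liver, and every MASH liver lay above every control liver. EE livers overlapped both MASH and control livers.

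Cyp17a1 was called in resmetirom over control, where it rose by 3.96 on the log2 scale (SE 0.69, adjusted p = 0.0177). It was the only member called there, in a comparison that called 3.16% of all tested genes, 1.41% as higher. The adjusted p stayed below 0.05 in 11 of 12 fits with 1 library left out and was 0.0585 without control 2. The log2 fold change was 5.05 without control 3. Without control 1 and resmetirom 2 the log2 fold change was 3.57 (adjusted p = 0.0328, with 7.47% of genes called). A fit of resmetirom and control livers alone gave 0.215, a fit with no scaling factors 0.0856 and one with no filter on low counts 0.0592.
The other contrasts of Cyp17a1 missed the threshold. Resmetirom over MASH gave 1.89 (SE 0.63, adjusted p = 0.199) with no overlap, and DESeq2 put it at 0.0463. MASH over control gave 2.08 (SE 0.64, adjusted p = 0.511), also with no overlap, and 3.17 without control 3. EE over MASH gave -0.92 (SE 0.62, adjusted p = 0.792) and EE over control 1.16 (SE 0.63, adjusted p = 0.38). EE over resmetirom gave -2.80 (SE 0.65, adjusted p = 0.108) with no overlap, in a comparison that called 0.307% of genes. Its adjusted p was 0.0435 without control 1 and 0.000965 with DESeq2, which called 2.94% of genes.

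Abcd2 carries very-long-chain fatty acyl-CoA into peroxisomes. Its counts were 145, 87 and 122 in EE livers, 1044, 47 and 664 in resmetirom livers, 651, 494 and 672 in MASH livers, and 29, 95 and 372 in control livers. MASH livers were close to one another, and resmetirom livers were not: resmetirom 1 and resmetirom 3 had 40.2 and 34.0 CPM and resmetirom 2, the library rich in urinary protein transcripts, 3.52 CPM. The mean level was 6.41 ± 1.46 CPM in EE, 25.9 ± 19.6 in resmetirom, 25.9 ± 5.08 in MASH and 8.60 ± 8.92 in control livers.
Abcd2 was called in none of the 6 comparisons. EE livers lay below all MASH livers, with a log2 fold change of -2.01 (SE 0.78, adjusted p = 0.625). Fitting only the EE and MASH livers gave an adjusted p of 0.00821 for Abcd2, with 5.62% of genes called, and the cause of that change was not tested. MASH over control gave 1.57 (SE 0.76, adjusted p = 0.57) with no overlap, and resmetirom over control 1.58 (SE 0.76, adjusted p = 0.24) with overlap. Without control 3, the control liver with the most Abcd2, these were 2.89 and 2.89. Resmetirom over MASH was 0.01 (SE 0.74, adjusted p = 0.998). EE over resmetirom was -2.02 (SE 0.78, adjusted p = 0.325) and -2.55 (adjusted p = 0.042) without control 1 and resmetirom 2, where 2.94% of genes were called. EE over control was -0.44 (SE 0.76, adjusted p = 0.805).

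**Figure D2:**
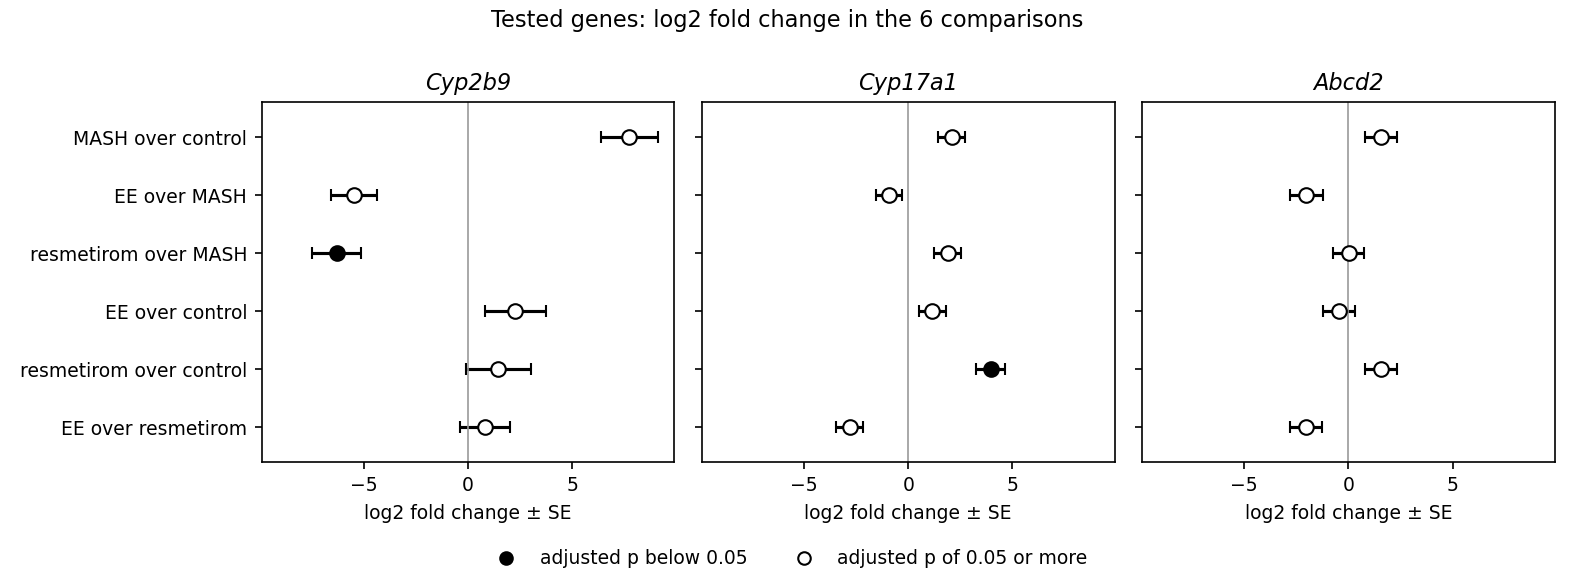
Log2 fold change with its SE for the 3 tested genes in the 6 comparisons, from the edgeR fit of all 12 livers; filled points have an adjusted p below 0.05. The filled points are Cyp2b9 in resmetirom over MASH and Cyp17a1 in resmetirom over control.

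The Cyp3a members, P450s of which Cyp3a41a and Cyp3a44 are female-specific in the adult mouse liver, were near the limit of detection. Cyp3a44 had no counts in the EE livers, 28, 1 and 6 in resmetirom livers, 1, 0 and 0 in MASH livers and none in the control livers. The resmetirom sum of 35 counts was at least 10.6-fold higher than the control sum and 42.0 times the MASH sum of 1 count, with a counting interval of 7.07 to 1708. The EE sum was at least 10.9-fold lower than the resmetirom sum. With no filter on low counts, Cyp3a44 had an adjusted p of 0.0235 in resmetirom over control (1.94% of genes called), 0.0429 in EE over resmetirom (0.644% called) and 0.0826 in resmetirom over MASH. Resmetirom 1, the liver rich in collagen transcripts, held 28 of the 35 counts; the part of that liver's makeup was not tested.
Cyp3a16 had 1 count in each resmetirom liver and none in the EE, MASH and control livers. At 3 counts in all, it was at the floor, and no fold is given. Cyp3a41a had 1, 0 and 0 counts in EE livers, 2, 1 and 1 in resmetirom livers, 3, 0 and 0 in MASH livers, and 5, 4 and 0 in control livers. Its highest group was therefore control, but the counts overlapped between groups and may belong in part to Cyp3a41b.

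Cux2 is the homeobox repressor that, in the female mouse liver, holds down male-biased genes. Its counts were 0, 5 and 6 in EE livers, 5, 4 and 14 in resmetirom livers, 4, 6 and 11 in MASH livers, and 3, 1 and 2 in control livers. The groups overlapped in all 6 comparisons. The MASH sum was 2.64 times the control sum (95% interval 1.03 to 8.00) and the resmetirom sum was 3.47 times the control sum (1.38 to 10.4), both from counting error only. No comparison of Cux2 passed in the fit with no filter.

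Counted by separation alone, 5 of the 9 members (Cyp2b9, Cyp2b13, Cyp17a1, Hao2 and Abcd2) lay higher in all MASH livers than in all control livers. Among the tested members this held for 3 of 3, beside 10.2% of all tested genes. In the other direction, 0 of 9 lay lower, beside 9.41%. The separation of Hao2 rests on 4 counts in MASH 2 against 3 in control 3. That of Cyp2b13 rests on 2 counts in MASH 2 against 0 in the control livers. Abcd2 separated narrowly, at 20.7 CPM in MASH 2 and 18.9 in control 3. In EE against MASH, 3 of 9 lay lower without overlap (Cyp2b9, Hao2 and Abcd2), which is 2 of the 3 tested members beside 15.5% of all tested genes. For Hao2 that is 4 counts in MASH 2 against 2 in EE 3. In resmetirom against MASH, Cyp2b9 and Hao2 lay lower while Cyp3a16, Cyp3a44 and Cyp17a1 lay higher. For Cyp3a16 this rests on 1 count in each resmetirom liver, and for Hao2 on the scaling of equal counts in MASH 2 and resmetirom 1. For Cyp3a44 it rests on the scaling of 1 count each in resmetirom 2 and MASH 1. The separation of these genes is therefore a matter of single counts. Of the 3 tested members 1 lay lower, beside 12.3% of tested genes, and 1 higher, beside 11.6%. In resmetirom against control, Cyp17a1 lay higher, 1 of the 3 tested members beside 9.93% of tested genes. Cyp3a16 and Cyp3a44 lay higher there by single counts, with Cyp3a44 at 1 count in resmetirom 2 and none in the control livers. In EE against control, 0 of 9 members separated in either direction, beside 13.7% of tested genes that lay higher and 13.5% that lay lower; 0.1% of tested genes were called there. In EE against resmetirom, Cyp17a1 lay lower in EE livers, 1 of 3 tested members beside 9.09%. Cyp3a16 and Cyp3a44 lay lower there by the same single counts, and 0 of 9 lay higher, beside 8.7%. The comparisons share livers and are not independent of one another.

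**Figure D3:**
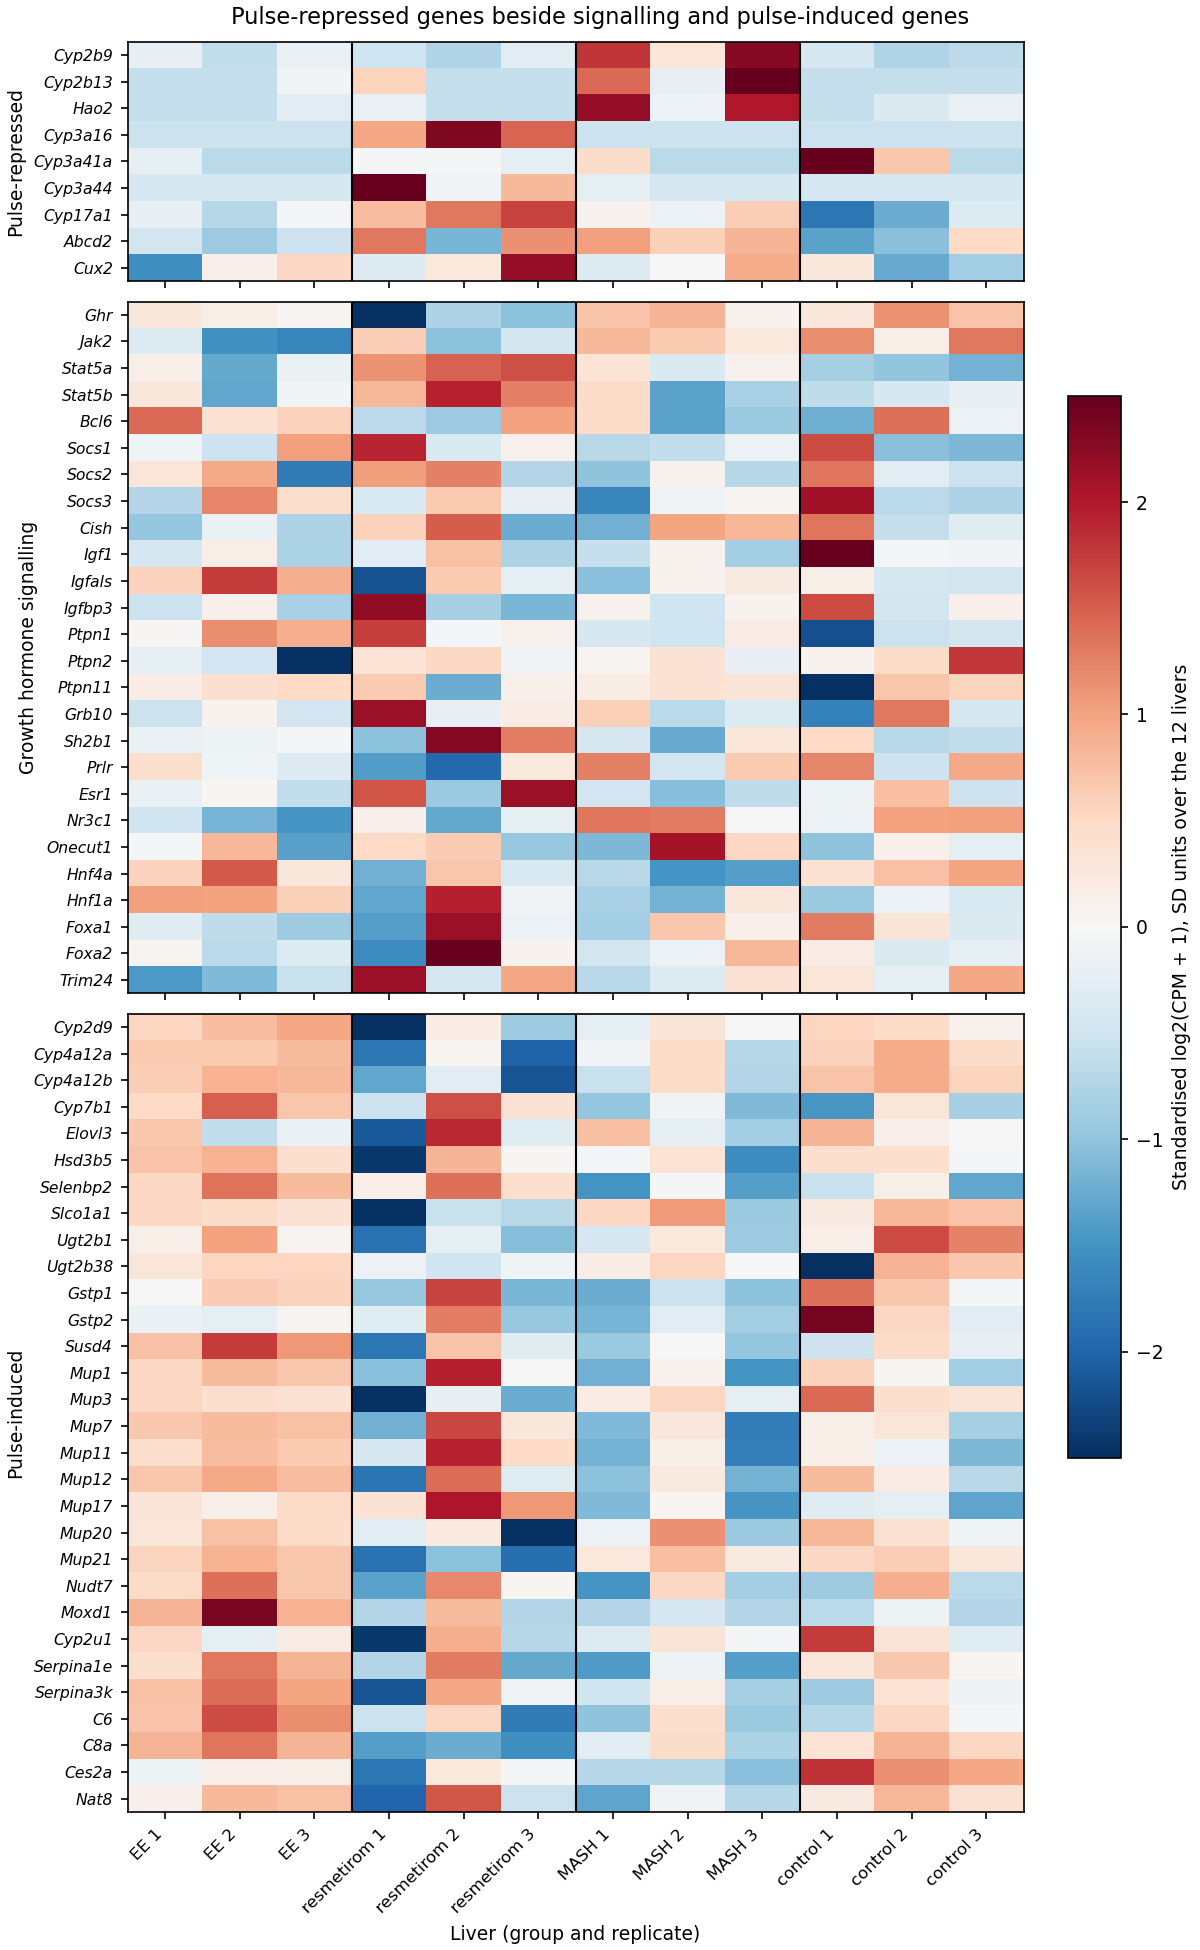
Level in each liver (columns, by group) of the 9 pulse-repressed genes, 26 genes of growth hormone signalling and 30 pulse-induced genes, as log2(CPM + 1) centred and divided by the SD over the 12 livers; colours end at 2.5 SD. Within the MASH group, Cyp2b9, Cyp2b13 and Hao2 are lower in MASH 2 than in MASH 1 and MASH 3, while Selenbp2, Hsd3b5 and Mup21 are higher in MASH 2.

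Genes of the growth hormone pathway gave the setting. Of 27 listed genes, 26 were tested, and in 5 of the comparisons none passed. In resmetirom over control, 1 rose and 2 fell. Stat5a, a transcription factor that growth hormone activates, averaged 27.2 ± 3.13 CPM in resmetirom and 8.44 ± 0.743 in control livers (log2 fold change 1.69, SE 0.26, adjusted p = 0.0115), and the call held in 12 of 12 fits with 1 library left out. The growth hormone receptor Ghr averaged 171 ± 50.8 CPM in resmetirom and 355 ± 53.3 in control livers (-1.06, SE 0.25, adjusted p = 0.0438), and the call held in 1 of those 12 fits. Stat5b averaged 67.7 ± 7.61 CPM in resmetirom and 47.3 ± 2.08 in control livers and did not pass (0.52, SE 0.20, adjusted p = 0.148).

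The genes that report the latest growth hormone pulse varied widely within groups. Cish, an inhibitor that growth hormone induces, ran from 2.52 to 7.13 CPM in EE, 1.64 to 47.0 in resmetirom, 1.75 to 26.3 in MASH and 4.19 to 38.4 in control livers. Bcl6, a repressor with more transcript in male than in female mouse liver, ran from 21.0 to 59.2 CPM in EE, 5.62 to 40.1 in resmetirom, 3.43 to 23.5 in MASH and 3.92 to 56.9 in control livers. Neither gene separated the groups. MASH 2, the liver with the least Cyp2b9 of its group, had 26.3 CPM of Cish. MASH 1 and MASH 3, with more Cyp2b9, had 1.75 and 22.4 CPM.

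The opposite arm of the program was set beside the members. All 30 pulse-induced, male-biased genes on the list were tested. In MASH over control 30 of 30 had a negative log2 fold change and 0 passed (median -0.59, beside -0.02 over all tested genes). In EE over MASH 30 of 30 had a positive one and again 0 passed (median 1.14, beside -0.02). Both comparisons use the same MASH livers, so the second is not separate from the first. The 30 genes include families such as the Mup genes and are not independent of one another. This list was chosen with earlier results of these data known, so the shared direction is a description only. Sharing of reads between such genes was not checked. Selenbp2 averaged 1386 ± 752 CPM in EE and 191 ± 198 in MASH livers (2.86, SE 0.86, adjusted p = 0.595). In resmetirom over MASH 19 of 30 were positive (median 0.49), 0 rose and 1 fell. That gene was Mup21, a urinary protein, at 4.15 ± 4.58 CPM in resmetirom and 123 ± 67.5 in MASH livers (-4.94, SE 0.72, adjusted p = 0.0155). The call was lost without any 1 of the MASH livers (highest adjusted p 0.065). In resmetirom over control, Mup21 and the complement gene C8a fell, and 18 of 30 were negative (median -0.22). In EE over resmetirom, Mup21 and C8a were called higher in EE livers, at 187 ± 52 and 632 ± 88.8 CPM, against 4.15 ± 4.58 and 203 ± 14 CPM in resmetirom livers. With 1 library left out, the C8a calls held in 10 of 12 fits over control (lost without control 2 or control 3) and in 7 of 12 in EE over resmetirom (lost without any 1 EE liver, resmetirom 2 or control 3). EE over control called none, with 22 of 30 positive (median 0.49). With no scaling factors the median over all tested genes moved to 0.37 in MASH over control and to -0.32 in EE over MASH.

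The other female-biased liver genes that could be tested did not move as a block in MASH over control, while most were negative in EE over MASH. Of 34 listed, 31 had a row and 25 were tested. In EE over MASH 20 of 25 had a negative log2 fold change (median -0.85, beside -0.02 over all tested genes) and 0 passed. In MASH over control 13 were positive and 12 negative (median 0.03, beside -0.02), and 0 passed. In resmetirom over MASH 17 of 25 were negative (median -0.42), while 1 gene rose. Ntrk2, a neurotrophin receptor, averaged 61.0 ± 9.7 CPM in resmetirom and 2.38 ± 1.38 in MASH livers (4.67, SE 0.48, adjusted p = 0.00452, and 0.0510 without MASH 2). Resmetirom over control called 3 of 25. Ntrk2 (5.44) and the organic anion transporter gene Slc22a27 rose, the second at 14.3 ± 11.5 CPM in resmetirom and 0.479 ± 0.328 in control livers (4.76, SE 0.97, adjusted p = 0.029). The Slc22a27 call was lost without EE 3, control 2 or control 3 (highest adjusted p 0.0775). The lipoprotein receptor gene Vldlr fell (-3.27, SE 0.81, adjusted p = 0.0498), a call that held in 0 of 12 fits with 1 library left out. EE over control called none, with 19 of 25 negative, and EE over resmetirom called only Ntrk2, lower in EE livers (-7.30, SE 0.58, adjusted p = 0.000401).

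The paralogs of the members did not follow them. Of 15 listed, 12 had a row and 9 were tested. Cyp2b10 was not tested and had 10 counts in EE, 5 in resmetirom, 16 in MASH and 106 in control livers, so it was highest where Cyp2b9 was lowest. Cyp3a11, the main 3A enzyme of the adult liver, averaged 250 ± 66.7 CPM in EE, 393 ± 479 in resmetirom, 465 ± 184 in MASH and 3398 ± 1026 in control livers. It fell in resmetirom over control (-3.11, SE 0.75, adjusted p = 0.0458), a call that held in 2 of 12 fits with 1 library left out. Cyp3a25 fell there too (-1.90, SE 0.29, adjusted p = 0.0115), in all 12 such fits. Cyp3a59 fell in EE over control, to 5.30 ± 2.04 CPM in EE livers against 32.5 ± 3.07 in control livers (-2.61, SE 0.31, adjusted p = 0.0178). That call was lost without EE 2, EE 3, control 2 or control 3 (highest adjusted p 0.278). Hao1, Cux1, Abcd3, Abcd4 and Cyp3a13 passed in no comparison, and Cyp21a1 and Cyp3a57 had at most 21 counts in a group.

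Cyp2b and Cyp3a genes also answer to the xenobiotic receptors CAR and PXR, so their targets were listed. Of 18 genes, 17 were tested. Cyp2c55 fell in MASH over control (-3.10, SE 0.37, adjusted p = 0.0177), in EE over control (-3.62) and in resmetirom over control (-2.50). The transporter Abcc3 fell in resmetirom over MASH, to 18.6 ± 13.7 CPM in resmetirom livers against 289 ± 67.8 in MASH livers (-3.95, SE 0.60, adjusted p = 0.0155), and was called lower in resmetirom over control (-3.59) and higher in EE over resmetirom (3.45). Cyp2c29 and Cyp3a11 fell in resmetirom over control, and Gstm3 was lower in EE than in resmetirom livers (-2.47, SE 0.43, adjusted p = 0.0416). None of the 17 passed in EE over MASH. With 1 library left out, the Cyp2c55 calls held in 5 of 12 fits for MASH over control, 7 for EE over control and 12 for resmetirom over control. The Abcc3 calls held in 9 of 12 for resmetirom over MASH (lost without any 1 MASH liver), 12 for resmetirom over control and 3 for EE over resmetirom. Cyp2c29 held in 2 and Gstm3 in 3 of 12.

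Markers of tissues other than liver were checked because Cyp17a1 and Hao2 are also expressed in steroid-making glands and kidney. The listed steroidogenic gland genes with a row, 4 of 8, summed to 0.359 to 0.926 CPM in EE, 0.256 to 0.424 in resmetirom, 0.615 to 0.937 in MASH and 0.508 to 1.00 in control livers. The 4 of 8 kidney genes with a row summed to at most 0.3 CPM in any liver. Lymphocyte markers, 12 of 12, summed to 7.73 to 13.3 CPM in EE, 23.6 to 147 in resmetirom, 9.74 to 20.8 in MASH and 9.34 to 28.8 in control livers. Ighm, the heavy chain of immunoglobulin M, made up most of the resmetirom sum, at 12.6, 128 and 101 CPM. The other 11 genes summed to 5.25 to 6.91 CPM in EE, 6.51 to 18.8 in resmetirom, 5.10 to 13.7 in MASH and 3.68 to 13.7 in control livers, with overlap. The part of these cells in the Cyp17a1 result was not tested. Adipocyte genes, 6 of 8 with a row, summed to 3.87 to 23.7 CPM in EE, 1.31 to 5.02 in resmetirom, 19.6 to 54.3 in MASH and 3.26 to 9.35 in control livers. Most of the MASH sum was Cfd, the protease adipsin, at 16.5, 40.7 and 20.1 CPM. Cidea was also highest in MASH livers, at 1.23 to 12.5 CPM. It reached at most 1.18 CPM in EE, 0.347 in resmetirom and 0.127 in control livers. Plin1 and Retn were at or near 0 in all livers. Without Cfd, the sum was 1.44 to 3.18 CPM in EE, 1.31 to 5.02 in resmetirom, 3.17 to 13.6 in MASH and 1.35 to 6.43 in control livers, with overlap. With or without Cfd, the sum within the MASH group was highest in MASH 2, the liver with the least Cyp2b9. The part of adipocyte RNA in the Cyp2b9 result was not tested.

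**Figure D4:**
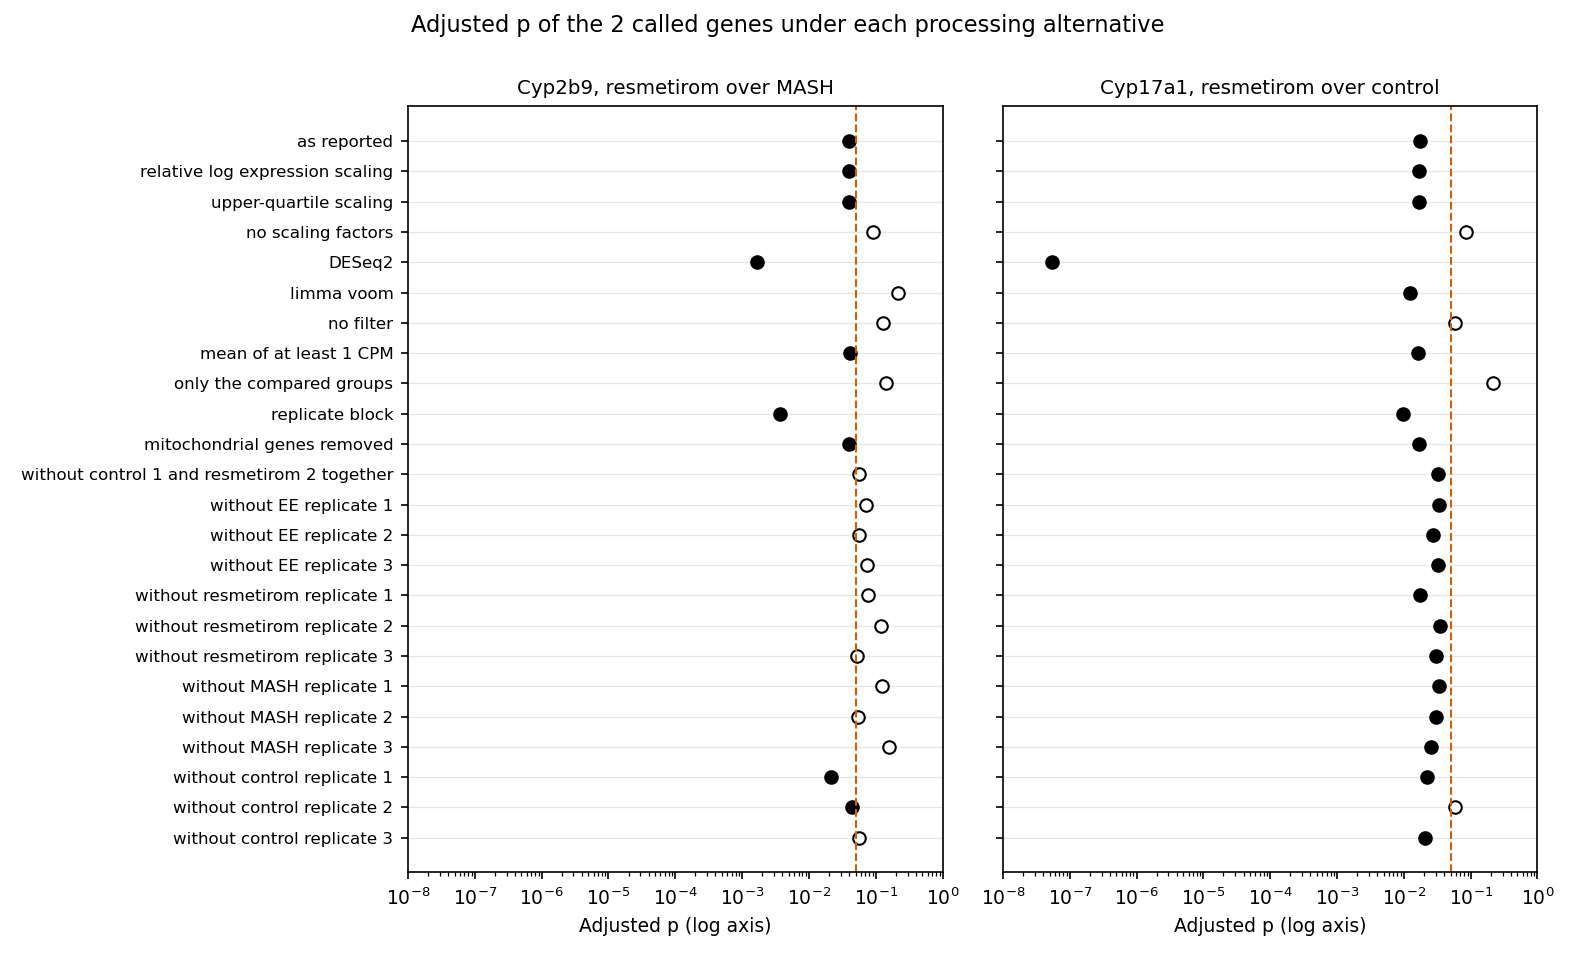
Adjusted p (log axis) of the 2 called genes as reported and under each processing alternative; filled points lie below 0.05, the dashed line. Cyp2b9 in resmetirom over MASH lies on both sides of the line, and Cyp17a1 in resmetirom over control crosses it in 4 settings.

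Genes whose level followed the tested members over the 12 livers were ranked by Pearson correlation with the mean of their standardised log2(CPM + 1), among 11765 genes with a mean of at least 1 CPM. The highest were Apoa4 (r = 0.91), an apolipoprotein, Rfx5 (0.90), Morc4 (0.87), Zfp41 (0.86) and Elovl2 (0.86), a fatty acid elongase. Apoa4 averaged 416 ± 197 CPM in EE, 1384 ± 764 in resmetirom, 1420 ± 534 in MASH and 155 ± 28.9 in control livers. The lowest were Glcci1 (-0.93), Gm3839 (-0.91), Zfp949 (-0.89), Fam114a2 (-0.88) and Cep95 (-0.87). Glcci1 averaged 1.67 ± 0.3 CPM in EE, 0.743 ± 0.266 in resmetirom, 0.0994 ± 0.024 in MASH and 2.32 ± 0.772 in control livers. These are descriptions over livers that share groups and library scaling, and with only 3 members behind the profile they say nothing of shared control.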

How the data were processed

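RNA of 12 mouse liver samples, 4 groups of 3, was sequenced as stranded poly(A) libraries, per the labels' protocols. The deposited table holds the authors' expected counts per gene, of which 91.47% to 93.33% per library are whole numbers. The submitters' processing notes name fastp and GRCm39. Aligner, counter, annotation and strand setting were not given in the sources used here. Values were rounded and tested with edgeR 4.0.16 (R 4.3.3) by robust quasi-likelihood, with TMM scaling, a filter at a minimum count of 10 and Benjamini-Hochberg adjustment over 13988 genes. All 12 libraries entered, with group as the only term. Alternatives included DESeq2 1.42.0 and limma 3.58.1 (voom). Nothing in the labels says whether each library is 1 animal, so p-values measure only the spread between these samples.

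The members and gene lists were chosen with earlier results of these data known. Beside the members, the text names every paralog with counts, listed genes that passed or had the smallest p in a comparison, and the 5 genes at each end of the likeness ranking. Apart from these, Cish, Bcl6 and listed genes shown per liver were chosen after their values were seen. A listed signalling gene and a paralog are counted in their lists but not reported here. Sums of untested members were compared by exact intervals at the 95% level, with a floor of 3 counts over a group; both cover counting error only.

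Same-numbered EE and MASH livers deviated together (r = 0.374, 0.286 and 0.279 across genes), so the replicate block is given beside the EE over MASH result. Other groups had at least 1 same-numbered pair at 0.1 or below. RefSeq promoter records (GRCm38.p6) covered 7 of 9 members and were read with Biopython 1.88.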

Additional observations from a re-analysis of the deposited data

Results flagged for a closer look

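For 2 members the EE and resmetirom livers lay apart when each was set against the same MASH livers. Cyp17a1 was lower than the MASH mean in EE livers (log2 fold change -0.92, with overlap) and higher than all MASH livers with resmetirom (1.89). The direct difference, EE over resmetirom, was -2.80 with an adjusted p of 0.108 in edgeR, lower in 3 of 3 EE livers. Cyp3a44 had no counts in EE livers, 35 in resmetirom livers and 1 in MASH livers. The EE and MASH sums were both under the floor of 3 counts, so only the resmetirom livers departed from MASH. The mean level in EE minus that in resmetirom livers was -0.487 CPM, a difference that was not tested in the reported fit, because the gene missed the filter on low counts. The EE over MASH and resmetirom over MASH changes share the MASH livers. Flags of this kind also arise by chance.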

How the results depend on the processing

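Members called numbered 0 in MASH over control, 0 in EE over MASH, 1 in resmetirom over MASH, 0 in EE over control, 1 in resmetirom over control and 0 in EE over resmetirom. Under DESeq2 these became 1 for MASH over control, 2 for resmetirom over MASH and 1 for EE over resmetirom. The replicate block gave 1 for EE over MASH, and 1 for MASH over control, where same-numbered livers did not deviate together. Fits of only the compared groups gave 1 for EE over MASH, 0 for resmetirom over MASH and 0 for resmetirom over control. No scaling factors gave 0 in both resmetirom contrasts, and limma voom 0 in resmetirom over MASH. Without control 1 and resmetirom 2 together, the counts were 0 for resmetirom over MASH and 1 for EE over resmetirom. No filter gave 1 for EE over resmetirom (Cyp3a44), and its 1 call was Hao2 in resmetirom over MASH and Cyp3a44 in resmetirom over control. Leaving out 1 library gave 0 to 1 in resmetirom over MASH, resmetirom over control and EE over resmetirom, and 0 in the others.

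Over all genes, in the order of comparisons above, the counts were 2, 1, 93, 14, 442 and 43. DESeq2 gave 87, 28, 657, 591, 1553 and 411. No scaling factors gave 1, 1, 38, 0, 37 and 12, and limma voom 1, 0, 100, 9, 354 and 30. No filter gave 34, 8, 247, 117, 543 and 180. Only the compared groups gave 0, 745, 0, 0, 5 and 3. The replicate block gave 2, 5, 112, 17, 326 and 19. Without control 1 and resmetirom 2 the counts were 9, 67, 467, 589, 1060 and 417. With 1 library left out they ran from 0 to 6, 0 to 1, 1 to 431, 0 to 69, 127 to 684 and 7 to 138. The causes were not tested.

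The direction of Abcd2 in resmetirom over MASH, near 0 as reported, reversed with limma voom (-0.51), no filter (-0.0035), the replicate block (-0.34), and without EE 1 (-0.00011), resmetirom 1 (-0.45), resmetirom 3 (-0.24) or MASH 2 (-0.14). It ran from -0.45 to 0.51 over the fits with 1 library left out. In EE over control it was 0.87 without control 3, and ran from -0.82 to 0.87. At this depth, 6 of the 9 members had too few counts to test.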

Other observations

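An observation made after the values were seen concerns resmetirom 1. It held 28 of the 35 Cyp3a44 counts, 7 of 7 Cyp2b13 counts and 4 of 4 Hao2 counts of its group. The other nearly silent members did not lie mostly there: Cux2 had 5, 4 and 14 counts in resmetirom livers, Cyp3a41a 2, 1 and 1, and Cyp3a16 1, 1 and 1. Of the listed female-biased Sult genes with a row, Sult2a1 was at 8.63, 0.375 and 0.256 CPM in resmetirom 1, 2 and 3. Sult2a2 was at 6.09, 0 and 0.103, Sult2a5 at 0.539, 0 and 0, and Sult3a1 at 0 in each. The summed level of the 30 pulse-induced genes was lowest in resmetirom 1, at 23809 CPM, against 226050 and 56578. The cause of these levels was not tested. Resmetirom 1 also had the highest stellate marker sum of its group, at 843 CPM, against 392 and 392 CPM in the other resmetirom livers, and the highest sum of monocyte and macrophage markers, at 383 CPM, against 193 and 138 CPM. The part of these cells in the counts was not tested.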
